A study of Mus musculus with 8 samples.

Results

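The 10 genes described here carry glucose into the heart cell and through glycolysis to lactate. They were chosen by name, as the transporters Slc2a1 and Slc2a4 and the enzymes Hk1, Hk2, Pfkm, Aldoa, Pgam2, Pkm, Ldha and Ldhb, and all 10 were found among the 25929 genes of the table by their Ensembl identifiers. RNA-sequencing covered 8 mouse heart libraries, 2 in each of 4 groups, and a library is written as its group with its replicate number (WT-TAC1). The labels give the tissue as ventricular, whereas the methods of the study name whole hearts. Wild-type (WT) mice were C57BL/6 by the labels, and fat-1 mice were their littermates that carry a desaturase gene of C. elegans. The enzyme turns n-6 into n-3 polyunsaturated fatty acids, and mRNA of the transgene itself was not analysed here. The surgery was transverse aortic constriction (TAC), a narrowing of the aorta that puts the ventricle under pressure overload, or a sham operation, at 3 months of age, and pressure overload lasted 8 weeks. The chest of WT-Sham and Fat1-Sham mice was opened without constriction, and WT-TAC and Fat1-TAC mice had the constriction. The labels call the samples of a group independent. The limma p-values below rest on the spread between the 2 samples of a group, pooled over all 4 groups.

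Glucose enters the cardiomyocyte through the insulin-responsive transporter GLUT4, encoded by Slc2a4, and through GLUT1, encoded by Slc2a1, which is less dependent on insulin. Hexokinases trap it as glucose 6-phosphate, phosphofructokinase commits it to glycolysis, and aldolase, phosphoglycerate mutase and pyruvate kinase carry it to pyruvate. Lactate dehydrogenase is a tetramer of the Ldha and Ldhb subunits, of which the heart holds mostly the product of Ldhb. The healthy adult heart takes most of its energy from fatty acids, and a larger part for glucose is a known feature of the overloaded heart.

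Levels are given as the authors deposited them, in FPKM, a measure of fragments that divides out the length of the gene and the depth of the library. The 10 genes lie on GRCm38 (mm10) at chr4:119108711-119137983 for Slc2a1, chr11:69942539-69948188 for Slc2a4, chr10:62268855-62379908 for Hk1 and chr6:82725025-82774454 for Hk2. Pfkm lies at chr15:98092589-98132451, Aldoa at chr7:126795234-126800751 and Pgam2 at chr11:5801640-5803733. Pkm lies at chr9:59656368-59679375, Ldha at chr7:46841475-46855627 and Ldhb at chr6:142490249-142507957. Each value is a sum over the whole gene, so the muscle and general splice forms of Pkm are not separated. A second identifier that is also named Aldoa did not exceed 0.641 FPKM in any library and was left out.

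Total fragments recovered from the values were 14163994 and 21218331 for the WT-Sham libraries in the order of their numbers, 19828559 and 17961120 for WT-TAC, 17780695 and 19555675 for Fat1-Sham, and 18683010 and 18147306 for Fat1-TAC. Slc2a1 was counted with 176 to 441 fragments per library, and the other 9 genes with 1838 to 38308. Counting error is therefore largest for Slc2a1.

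The WT-TAC libraries stood apart from the others, and WT-TAC1 most of all. Across all genes, log2(FPKM + 1) correlated between replicates with r = 0.898 in WT-TAC, against 0.984 in WT-Sham, 0.985 in Fat1-Sham and 0.981 in Fat1-TAC. All 9 cardiomyocyte markers were detected in all 8 libraries, but their summed level was 25772 FPKM in WT-TAC1 and 47220 to 62467 in the other 7. The share of fragments on mitochondrially encoded genes was 11.8% for WT-TAC1 and 19.3% for WT-TAC2, below the 22.9% to 27.7% of the other 6.

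Markers of tissues other than heart muscle were high in the same libraries. The 6 thymocyte markers summed to 1371 FPKM in WT-TAC1, led by Cd4 at 302 FPKM, and to 0.599 to 1.90 FPKM elsewhere. Rag1, which acts in immature lymphocytes, was at 252 FPKM in WT-TAC1 and at 0 in 6 of the other 7 libraries. The 9 fast skeletal muscle markers summed to 196 FPKM in WT-TAC1, led by Mylpf at 65.4 FPKM, and to 4.86 to 12.2 FPKM elsewhere, with up to 3 of them at 0. The 8 airway epithelium markers, led by Bpifa1, summed to 1605 and 3792 FPKM in the WT-TAC libraries, 50.4 in Fat1-Sham1 and 2.09 to 4.85 in the other 5. The 6 adipocyte markers, led by Cfd, summed to 612 and 792 FPKM in the WT-TAC libraries, 6.23 in Fat1-TAC1 and 85.5 to 295 in the other 5. The part of these tissues in the results below was not tested. In bulk tissue, fewer cells of a type cannot be told apart from less RNA per cell. For several differences the value without WT-TAC1 is given too.

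**Figure D1:**
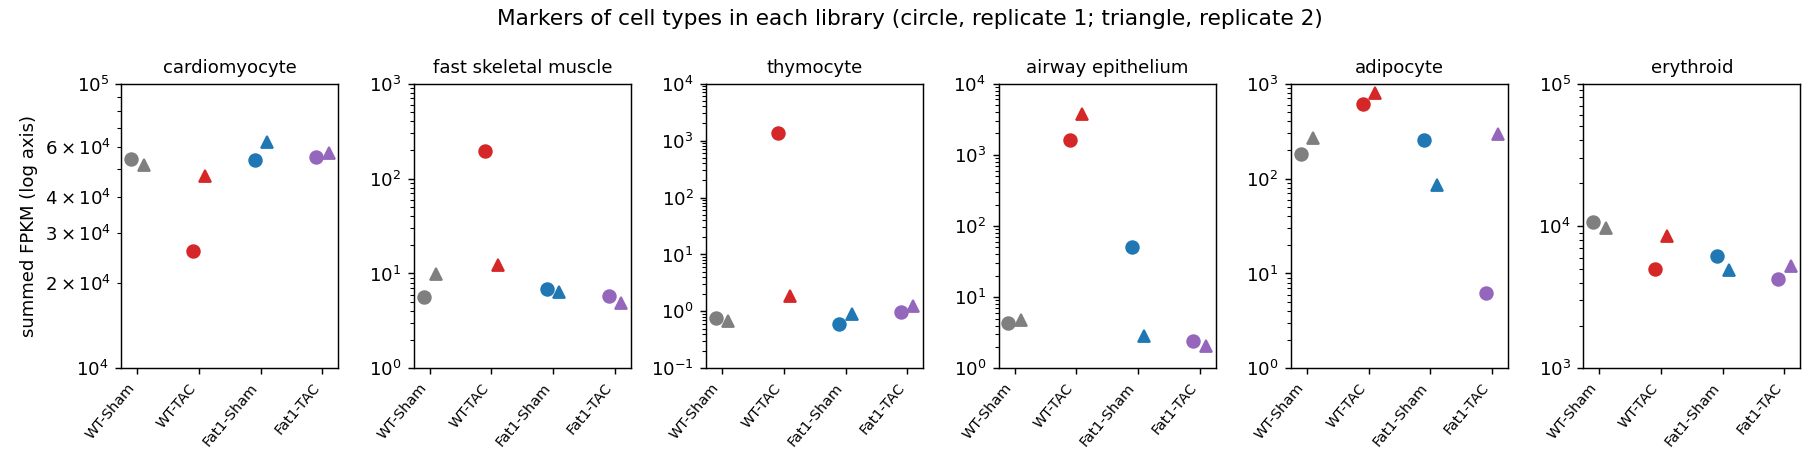
Summed FPKM (log axis) of 6 marker lists in each library, with a circle for replicate 1 and a triangle for replicate 2. WT-TAC1 is lowest in cardiomyocyte markers, at 25772 FPKM, and highest in thymocyte and fast skeletal muscle markers, and both WT-TAC libraries are high in airway epithelium and adipocyte markers.

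Ordered by mean level over the 8 libraries, the pathway ran from Aldoa at 1491 FPKM and Ldhb at 1391 FPKM to Slc2a1 at 12.2 FPKM. Between them lay Pkm at 981 FPKM, Ldha at 626, Pgam2 at 450, Pfkm at 323, Slc2a4 at 260, Hk2 at 147 and Hk1 at 116. Aldoa exceeded Ldhb in only 5 of 8 libraries, so that these neighbours did not differ beyond their spread. Hk2 exceeded Hk1 in 7 of 8, all but WT-TAC1, and each of the other 7 neighbouring pairs kept its order in all 8 libraries. These comparisons between genes hold per length as the authors set it, 1 length per gene, such as 2848 bases for Pfkm and 1297 for Hk1 by the recovery of whole fragments.

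Slc2a4, the gene of the main transporter of the adult heart, was at 242 and 277 FPKM in WT-Sham, 154 and 277 in WT-TAC, 308 and 286 in Fat1-Sham and 252 and 285 in Fat1-TAC. WT-TAC1 lay below all other libraries, and WT-TAC2 was level with the higher WT-Sham library. Slc2a1, the gene of the general transporter, was at 8.55 and 11.4 FPKM in WT-Sham, 15.3 and 16.0 in WT-TAC, 13.3 and 9.92 in Fat1-Sham and 10.5 and 12.7 in Fat1-TAC. Both WT-TAC libraries lay above the other 6.

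Hk1, the general hexokinase, was at 100 and 129 FPKM in WT-Sham, 100.2 and 121 in WT-TAC, 123 and 141 in Fat1-Sham and 101 and 112 in Fat1-TAC. Hk2, the hexokinase of muscle and fat, was at 152 and 140 FPKM in WT-Sham, 83.9 and 161 in WT-TAC, 169 and 174 in Fat1-Sham and 132 and 165 in Fat1-TAC. The Fat1-Sham libraries were the 2 highest for Hk2, and WT-TAC1 was the lowest.

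Pfkm, the muscle phosphofructokinase, was at 335 and 319 FPKM in WT-Sham, 183 and 327 in WT-TAC, 378 and 385 in Fat1-Sham and 297 and 362 in Fat1-TAC. Aldoa, the muscle aldolase, was at 1531 and 1683 FPKM in WT-Sham, 842 and 1435 in WT-TAC, 1727 and 1771 in Fat1-Sham and 1431 and 1508 in Fat1-TAC. Both genes were lowest in WT-TAC1 and highest in Fat1-Sham2, and for Aldoa both TAC groups lay below both sham groups.

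Pgam2, the muscle phosphoglycerate mutase, was at 469 and 502 FPKM in WT-Sham, 249 and 438 in WT-TAC, 467 and 517 in Fat1-Sham and 449 and 510 in Fat1-TAC. Pkm, pyruvate kinase, was at 1031 and 885 FPKM in WT-Sham, 728 and 1025 in WT-TAC, 1030 and 1035 in Fat1-Sham and 993 and 1120 in Fat1-TAC. For Pgam2 both WT-TAC libraries were below the other 6, and for Pkm WT-TAC2 lay among them.

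Ldha, the subunit that prevails in skeletal muscle, was at 661 and 678 FPKM in WT-Sham, 563 and 638 in WT-TAC, 657 and 680 in Fat1-Sham and 513 and 617 in Fat1-TAC. Ldhb, the subunit that prevails in heart, was at 1591 and 1362 FPKM in WT-Sham, 792 and 1199 in WT-TAC, 1560.2 and 1559.8 in Fat1-Sham and 1479 and 1585 in Fat1-TAC. Ldha was lower in all 4 TAC libraries than in all 4 sham libraries, and Ldhb was lower in both WT-TAC libraries than in the other 6. Of the 10 genes, 7 had their lowest value in WT-TAC1, namely Slc2a4, Hk2, Pfkm, Aldoa, Pgam2, Pkm and Ldhb.

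**Figure D2:**
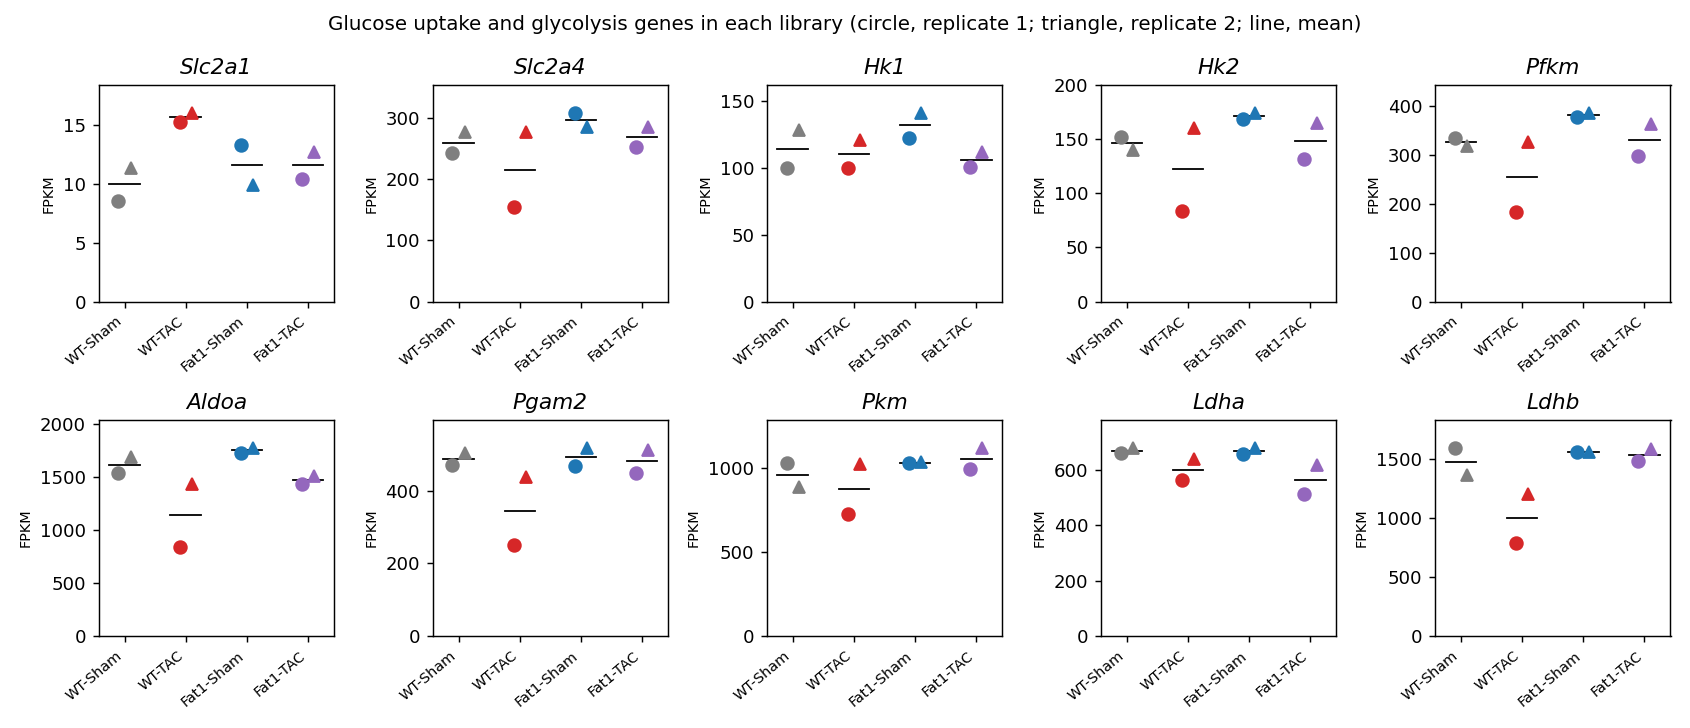
FPKM of the 10 genes in each library on axes that start at 0, with a circle for replicate 1, a triangle for replicate 2 and a line for the mean of the group. WT-TAC1 is the lowest of the 8 libraries for 7 genes, and Slc2a1 is the gene with both WT-TAC libraries above the other 6.

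The first comparison asked how the pathway differed after pressure overload in wild-type hearts. After TAC, Slc2a1 was 1.53-fold higher and the other 9 genes were lower, by 3.01% for Hk1 to 33.8% for Ldhb, but no gene of the 10 passed the test. To be called, a gene needed a fold change over 1.5 in either direction and a p under 0.1 after Benjamini-Hochberg adjustment over all genes tested. Of the 14442 genes tested in limma, 135 were called (0.935%), 133 of them higher in WT-TAC. Without adjustment, Slc2a1 and Ldhb had p under 0.05, 2 of the 10 beside 27.5% of all genes tested.

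On the log2(FPKM + 1) scale the difference of Slc2a1 was 0.61 (SE 0.22, adjusted p = 0.176 by limma). For Ldhb it was -0.59 (SE 0.24, adjusted p = 0.179 by limma). Aldoa, at -0.55 (SE 0.27), and Pgam2, at -0.55 (SE 0.26), had adjusted p of 0.204 and 0.196 by limma. The median over the 10 genes was -0.32, while the median over all genes tested was 0.39. Groups did not overlap for Slc2a1, which was higher, and for Aldoa, Pgam2, Ldha and Ldhb, which were lower in WT-TAC. Of all genes tested, 52.5% had both WT-TAC libraries above both WT-Sham libraries, and 7.09% had both below.

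The direction of several of these differences changed with WT-TAC1. Without it, 6 of the 10 genes were higher and 4 lower in WT-TAC, with a median of 0.04 and none called. Slc2a1 stayed higher, between 0.43 and 0.80, and Ldhb lower, between -0.89 and -0.30, with each library left out in turn. Without WT-TAC1 the differences were -0.16 for Aldoa and -0.15 for Pgam2. Without WT-TAC2, 6 genes were called lower, namely Slc2a4, Hk2, Pfkm, Aldoa, Pgam2 and Ldhb, with 7065 of all genes called and WT-TAC1 alone assumed to vary like the other groups. For Aldoa the difference was then -0.93, with an adjusted p of 0.000666 by limma.

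The fat-1 hearts under pressure overload were compared with the wild-type hearts after the same surgery. Relative to WT-TAC, Ldhb was 1.57-fold higher and Slc2a1 24.7% lower, 7 genes were higher and 3 lower, and again none of the 10 was called. Of all genes tested, 206 were called (1.43%), 201 of them lower in Fat1-TAC. The difference was 0.65 for Ldhb (SE 0.24, adjusted p = 0.163 by limma), and Ldhb alone of the 10 had an unadjusted p under 0.05, beside 29.4% of all genes tested. Pgam2, at 0.53 (SE 0.26), and Slc2a1, at -0.41 (SE 0.22), had adjusted p of 0.191 and 0.220 by limma. With each library left out in turn, Ldhb ranged from 0.35 to 0.95 and Pgam2 from 0.13 to 0.94, and both were lowest without WT-TAC1. Divided by the cardiomyocyte markers of the same library, Ldhb was at 1498 and 1213 in WT-TAC and 1334 and 1362 in Fat1-TAC. The TAC groups thus overlapped for Ldhb on that scale.

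The median was 0.36 over the 10 genes and -0.40 over all genes tested. Groups did not overlap for Pgam2 and Ldhb, which were higher in Fat1-TAC, and for Slc2a1, which was lower, beside 9.33% of all genes higher and 57.1% lower in that way. This comparison and the first share the WT-TAC libraries, so their values are not independent of each other. Without WT-TAC1, 5 genes were higher and 5 lower, with a median of -0.02. Without WT-TAC2, 6 genes were called higher, the same 6 that were called lower in the first comparison without that library, with 7523 of all genes called.

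The same surgery was compared within fat-1 hearts, where no gene of the 10 differed by the fold change of 1.5. From Fat1-Sham to Fat1-TAC the differences ranged from -0.31 for Hk1 (SE 0.18) to 0.03 for Pkm (SE 0.22), with a median of -0.18 beside 0.02 over all genes. The 95% interval of the Hk1 difference ran from -0.74 to 0.12, and that of Slc2a1, at 0.01, from -0.52 to 0.53. Both intervals use the pooled spread, which includes the WT-TAC libraries. No gene of the 10 was called, none had an unadjusted p under 0.05 and every adjusted p was 1 by limma, and 1 of all genes tested was called (0.00692%). Both Fat1-TAC libraries lay below both Fat1-Sham libraries for 6 genes, Slc2a4, Hk1, Hk2, Pfkm, Aldoa and Ldha, beside 21.5% of all genes, and above them for none, beside 26.8%.

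The genotypes were then compared after sham surgery. Of the 10 genes, 9 were higher in Fat1-Sham than in WT-Sham, by up to 17.3% for Hk2, and Ldha was 0.185% lower. No gene of the 10 or of all genes tested was called (0.0%), every adjusted p of the 10 was 1 by limma, and an unadjusted p under 0.05 was found for none of the 10 and 1.25% of all genes. The per-gene test called 1 gene of all. The difference of Hk2 was 0.23 (SE 0.29) and its 95% interval ran from -0.45 to 0.91, which holds both 0 and differences beyond the fold change of 1.5. The width of this interval comes from a spread pooled over all 4 groups, WT-TAC included. On the log2(FPKM + 1) scale the median replicate gap of the 10 genes was 0.683 in WT-TAC, 0.165 in WT-Sham and 0.0466 in Fat1-Sham. Groups did not overlap for Slc2a4, Hk2, Pfkm and Aldoa, all higher in Fat1-Sham, beside 15.5% of all genes higher and 16.5% lower in that way.

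Whether the response to TAC itself differed between genotypes was tested as an interaction. None of the 10 genes was called and none had an unadjusted p under 0.05, while 10 of all genes tested were called (0.0692%). The values ran from -0.61 for Slc2a1 (SE 0.31) to 0.57 for Ldhb (SE 0.34), with an adjusted p of 0.494 by limma for each of them. Without WT-TAC1 the median over the 10 genes moved from 0.18 to -0.20, and without WT-TAC2 it was 0.59 with 5 genes called, beside 6398 of all genes. Ldhb was at 0.27 without WT-TAC1.

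The direction of most differences depended on how libraries were scaled. On FPKM divided by the cardiomyocyte markers of the same library, WT-TAC1 was no longer the lowest library for any of the 10 genes. Slc2a4 was then at 236 and 277 in WT-Sham and 292 and 280 in WT-TAC, and Aldoa at 1494 and 1682 against 1592 and 1452. The divisor was 0.529 in WT-TAC1 and 0.988 to 1.16 in the other 7 libraries, so this scale raises every gene in WT-TAC1 relative to them. The share of all genes that was highest in WT-TAC1 on this scale was not computed. Of the 10 genes, 4 were highest in WT-TAC1 on this scale. They were Slc2a1 at 28.9, against 8.34 to 16.2 in the other 7 libraries, Hk1 at 190, against 90.7 to 129, Pkm at 1377, against 885 to 1037, and Ldha at 1065, against 462 to 678.

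The median difference of the 10 genes between WT-TAC and WT-Sham was 0.16 on the cardiomyocyte scale and -0.80 with median of ratios size factors. Between Fat1-TAC and WT-TAC it was -0.29 and 0.82. None of the 10 was called in either comparison on either scale. The median of all genes moved too, from 0.39 to 0.82 on the cardiomyocyte scale and to -0.02 with size factors in the first comparison. Relative to the median of all genes, the median of the 10 was lower in WT-TAC on all 3 scales. Each scale divides a library by a single factor and so moves nearly all genes alike. That order was therefore largely fixed, and the 3 scales are not separate results. In the same way, the scale turned the difference of Slc2a1 between Fat1-TAC and WT-TAC from -0.41 as deposited and -1.02 on the cardiomyocyte scale to 0.03 with size factors.

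**Figure D3:**
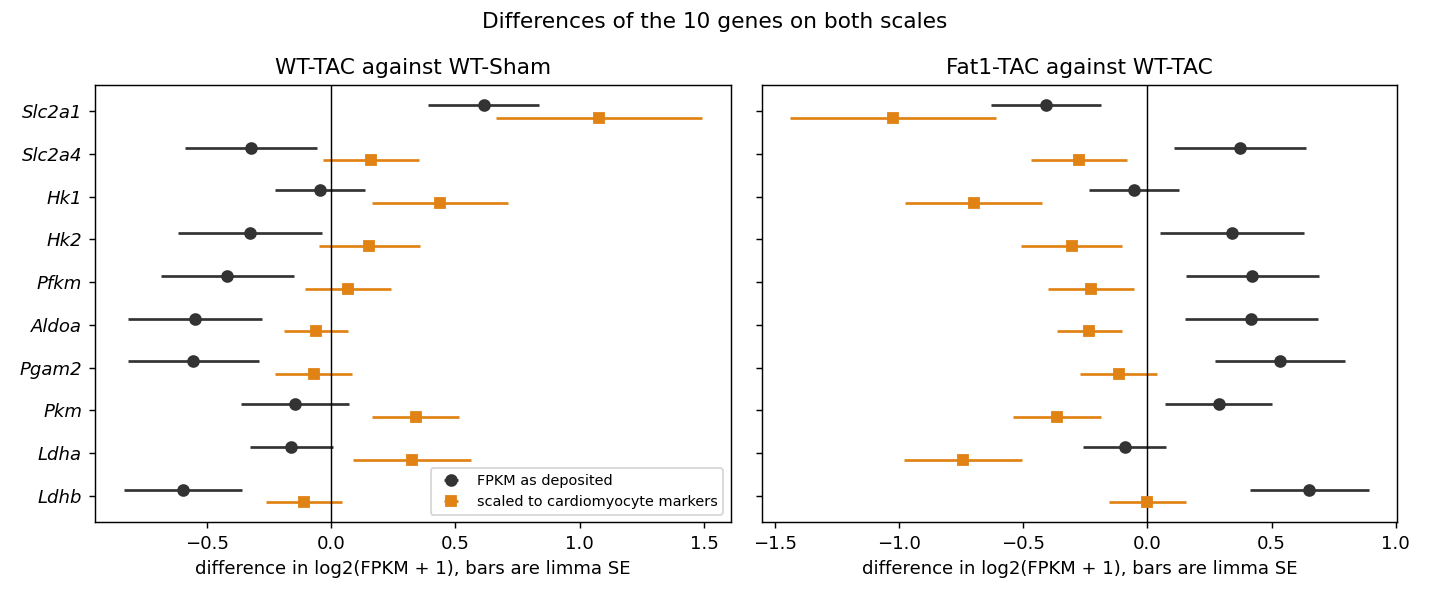
Difference in log2(FPKM + 1) of the 10 genes between WT-TAC and WT-Sham (left) and between Fat1-TAC and WT-TAC (right), as deposited (circles) and scaled to cardiomyocyte markers (squares), with the limma SE as bars. Slc2a4, Hk2, Pfkm and Pkm change sign between the scales in both panels, and Slc2a1 keeps its sign on both.

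A ratio of 2 isoforms within a library does not depend on scaling. Slc2a1 to Slc2a4, the general to the insulin-responsive transporter, was 0.0353 and 0.0411 in WT-Sham, 0.0991 and 0.0578 in WT-TAC, 0.0433 and 0.0347 in Fat1-Sham and 0.0415 and 0.0447 in Fat1-TAC. The WT-TAC libraries had the 2 highest ratios, and WT-TAC1 was well above WT-TAC2. Averaged over genotypes, the ratio was 1.49-fold higher after TAC (exact two-sided permutation p = 0.111 within genotype, 0.444 adjusted over the 6 ratio tests). The smallest p that its 36 arrangements allow is 0.0556. The log2 change of this ratio after TAC was 0.99 in WT and 0.15 in fat-1 hearts. Its log2 average over genotypes, 0.57, was 0.38 to 0.76 with each library left out in turn.

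Ldha to Ldhb was 0.416 and 0.498 in WT-Sham, 0.711 and 0.533 in WT-TAC, 0.421 and 0.436 in Fat1-Sham and 0.346 and 0.389 in Fat1-TAC. The 2 WT-TAC libraries were the highest and the 2 Fat1-TAC libraries the lowest of the 8. The ratio was 0.750-fold in fat-1 relative to WT hearts over both surgeries (exact permutation p = 0.167, adjusted 0.444), and 1.08-fold after TAC over both genotypes (exact permutation p = 0.667, adjusted 0.667). Hk1 to Hk2 was 0.660 and 0.916 in WT-Sham, 1.20 and 0.751 in WT-TAC, 0.727 and 0.810 in Fat1-Sham and 0.764 and 0.677 in Fat1-TAC. The groups overlapped for this ratio, and its exact permutation p was 0.667 for surgery and 0.389 for genotype.

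The same was computed for 4 pairs of a general and a muscle isoform in which at least the general form is not among the 10 genes. Eno1 to Eno3 was 0.117 and 0.175 in WT-Sham, 0.549 and 0.323 in WT-TAC, and between 0.109 and 0.154 in the 4 fat-1 libraries. Pgam1 to Pgam2 was 0.0482 and 0.0650 in WT-Sham, 0.129 and 0.0778 in WT-TAC, 0.0550 and 0.0538 in Fat1-Sham and 0.0336 and 0.0371 in Fat1-TAC. Pfkl to Pfkm was 0.465 and 0.397 in WT-TAC and 0.302 to 0.366 in the other 6 libraries. For these 3 pairs the WT-TAC libraries had the 2 highest ratios. For the WT-TAC libraries Pfkp to Pfkm was 0.272 and 0.107, and the latter lay within the 0.0675 to 0.108 of the other 6 libraries. The 4 pairs were measured in the same libraries in which the markers of other tissues were high.

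**Figure D4:**
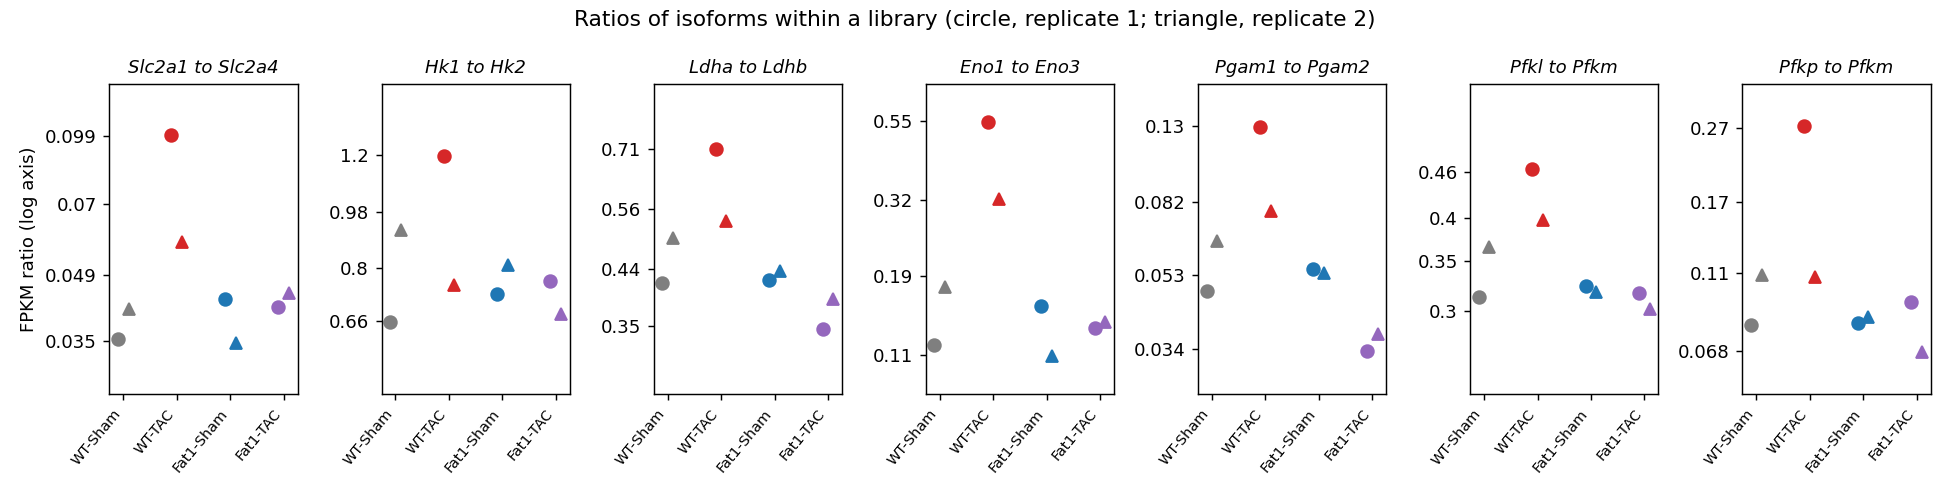
FPKM ratio of 2 isoforms within a library (log axes) for 7 pairs, with a circle for replicate 1 and a triangle for replicate 2. For Slc2a1 to Slc2a4, Ldha to Ldhb, Eno1 to Eno3, Pgam1 to Pgam2 and Pfkl to Pfkm the WT-TAC libraries are the 2 highest, and for Ldha to Ldhb and Pgam1 to Pgam2 the Fat1-TAC libraries are the 2 lowest.

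Further genes of the pathway were taken from 7 lists. Of the 14 other glycolysis enzymes, 2 were called, both lower in Fat1-TAC than in WT-TAC, beside 1.39% of all genes tested that were called lower there. Eno1, the general enolase, was at 170 and 219 FPKM in WT-Sham, 325 and 349 in WT-TAC, 199 and 153 in Fat1-Sham and 151 and 176 in Fat1-TAC. It was 51.4% lower in Fat1-TAC than in WT-TAC (difference -1.04, SE 0.20, adjusted p = 0.0908 by limma). Eno2, the enolase of neurons, was at 1.89 and 2.64 FPKM in WT-Sham, 6.40 and 4.88 in WT-TAC, 0.845 and 0.726 in Fat1-Sham and 1.61 and 1.33 in Fat1-TAC. Its difference was -1.42 (SE 0.24, adjusted p = 0.0731 by limma). For both enolases the WT-TAC libraries were above the other 6.

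Of the 8 genes in side branches of glycolysis, 2 were called, again lower in Fat1-TAC than in WT-TAC beside 1.39% of all genes tested, and both belong to the pentose phosphate pathway. G6pdx, which opens it, was at 7.07 and 11.6 FPKM in WT-Sham, 24.98 and 20.7 in WT-TAC, 8.94 and 5.89 in Fat1-Sham and 6.08 and 7.45 in Fat1-TAC, with a difference of -1.62 (SE 0.29, adjusted p = 0.0791 by limma). Taldo1, transaldolase, was at 77.4 and 91.4 FPKM in WT-Sham, 128 and 135 in WT-TAC, 91.5 and 81.7 in Fat1-Sham and 63.2 and 79.6 in Fat1-TAC. Its difference was -0.88 (SE 0.17, adjusted p = 0.0937 by limma). The WT-TAC libraries were again the 2 highest for each gene. All 4 calls ended with median of ratios size factors, where the differences were -0.57 for Eno1, -1.05 for Eno2, -1.18 for G6pdx and -0.41 for Taldo1, and under most other settings. They ended when any library other than WT-TAC2 was left out, with adjusted p by limma of 0.112 to 0.469, and all 4 were called without WT-TAC2.

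The largest differences among the listed genes that were not called lay in the same branches. Tkt, transketolase, was at 31.0 and 32.3 FPKM in WT-Sham, 94.2 and 147 in WT-TAC, 46.7 and 14.5 in Fat1-Sham and 15.1 and 33.7 in Fat1-TAC. Gpd1, glycerol 3-phosphate dehydrogenase, was at 51.7 and 88.7 FPKM in WT-Sham, 119 and 281 in WT-TAC, 91.4 and 36.7 in Fat1-Sham and 30.7 and 47.1 in Fat1-TAC. Between Fat1-TAC and WT-TAC the differences were -2.33 (SE 0.56, adjusted p = 0.134) for Tkt and -2.23 (SE 0.55, adjusted p = 0.138) for Gpd1 by limma. Replicates of 1 group were up to 3.22-fold apart for Tkt and 2.49-fold for Gpd1. The median of the 8 side-branch genes was 0.90 for WT-TAC against WT-Sham and -1.03 for Fat1-TAC against WT-TAC. Markers of several other cell types were also high in WT-TAC, and adipocyte markers were among them. The 8 side-branch genes summed to 288 and 346 FPKM in WT-Sham, 521 and 732 in WT-TAC, 366 and 257 in Fat1-Sham and 245 and 304 in Fat1-TAC, and the 6 adipocyte markers to 182 and 269, 612 and 792, 254 and 85.5, and 6.23 and 295 in the same libraries. Both sums were highest in WT-TAC2, then in WT-TAC1, and lowest in Fat1-TAC1, but the order of the libraries in between differed. The airway epithelium markers were also highest in WT-TAC2, at 3792 FPKM, and then in WT-TAC1, at 1605 FPKM. The 6 macrophage markers, led by Lyz2, summed to 605 and 458 FPKM in WT-TAC and to 280 to 391 in the other 6 libraries, and 1 of them was called lower in Fat1-TAC than in WT-TAC. The 6 fibroblast markers, led by Dcn, summed to 1023 and 1014 FPKM in WT-TAC and to 548 to 987 elsewhere, with 2 called lower in Fat1-TAC, and 7 of the 8 airway markers were called lower there, beside 1.39% of all genes tested. The part of these cell types in the differences was not tested. Without adjustment, 6 of the 8 had a p under 0.05 in the first of these comparisons, all higher in WT-TAC, beside 27.5% of all genes tested in either direction. In the second all 8 did, 7 lower and 1 higher in Fat1-TAC, beside 29.4% of all genes tested.

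Of the 14 genes that govern the entry of pyruvate into mitochondria, none was called by limma in any of the 5 comparisons, with an unadjusted p under 0.05 for 1 of them after TAC in wild-type hearts, for 2 after TAC in fat-1 hearts and for 2 between the TAC groups. Beside these stand 27.5%, 2.58% and 29.4% of all genes tested. Pdk4, a kinase that shuts pyruvate dehydrogenase, was at 172 and 226 FPKM in WT-Sham, 69.9 and 90.8 in WT-TAC, 256 and 352 in Fat1-Sham and 196 and 80.7 in Fat1-TAC. In each genotype both TAC libraries lay below both sham libraries. The difference was -1.30 (SE 0.40, adjusted p = 0.174 by limma) in WT and -1.25 (SE 0.40, adjusted p = 1 by limma) in fat-1 hearts. Pdk3, another kinase of the family, was at 2.72 and 5.31 FPKM in WT-Sham, 15.4 and 5.58 in WT-TAC, 3.90 and 1.77 in Fat1-Sham and 1.65 and 1.59 in Fat1-TAC. Its difference between the TAC groups was -1.99, and -1.33 without WT-TAC1. Mpc1, a subunit of the mitochondrial pyruvate carrier, was at 15.9 and 15.8 FPKM in Fat1-Sham and 24.7 and 28.9 in Fat1-TAC, with a difference of 0.72 (SE 0.23, adjusted p = 1 by limma). For WT-TAC against WT-Sham the difference of Mpc1 was -0.03, and 0.28 without WT-TAC1. For Fat1-Sham against WT-Sham it was -0.43.

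No gene was called among the 6 tested of 7 other transporters, the 9 regulators of flux, the 10 tested of 11 glycogen genes and the 9 genes of insulin signalling to Slc2a4, in any comparison. For WT-TAC against WT-Sham, 0, 1, 3 and 0 of them had an unadjusted p under 0.05 in limma, and for Fat1-TAC against WT-TAC 0, 3, 3 and 1, beside 27.5% and 29.4% of all genes tested. In WT-TAC against WT-Sham their medians were 0.12, 0.13, -0.31 and 0.12. Against WT-TAC, Fat1-TAC had medians of -0.37, -0.22, 0.23 and -0.22. Without WT-TAC1 the medians were 0.20, 0.07, -0.0008 and 0.14 in the first of these comparisons and -0.39, -0.10, -0.05 and -0.16 in the second, so that the glycogen median turned in the second. Pfkfb3, a kinase that makes an activator of phosphofructokinase, had the lowest value of the regulators in that comparison, at -1.22 (SE 0.39, adjusted p = 0.163 by limma). Gapdh was between 22.7 and 148 FPKM with replicates of WT-Sham 3.07-fold apart, so its values are uncertain. It has many pseudogene copies that share its sequence, and their part in its values was not tested.

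The pathways of fatty acid oxidation and the citric acid cycle gave no calls by limma either. For WT-TAC against WT-Sham, 0 and 2 of their genes had an unadjusted p under 0.05, beside 27.5% of all genes tested. For Fat1-TAC against WT-TAC, 2 and 0 did, beside 29.4%. The medians of the 16 and 17 genes of these pathways were -0.45 and -0.37 for WT-TAC against WT-Sham, beside -0.32 for the 10 genes. For Fat1-TAC against WT-TAC they were 0.40 and 0.33, beside 0.36. Without WT-TAC1 the medians of fatty acid oxidation were -0.00149 and -0.00942, and those of the citric acid cycle -0.0240 and -0.0154. The 9 cardiomyocyte markers had medians of -0.54 and 0.60 in the same comparisons.

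**Figure D5:**
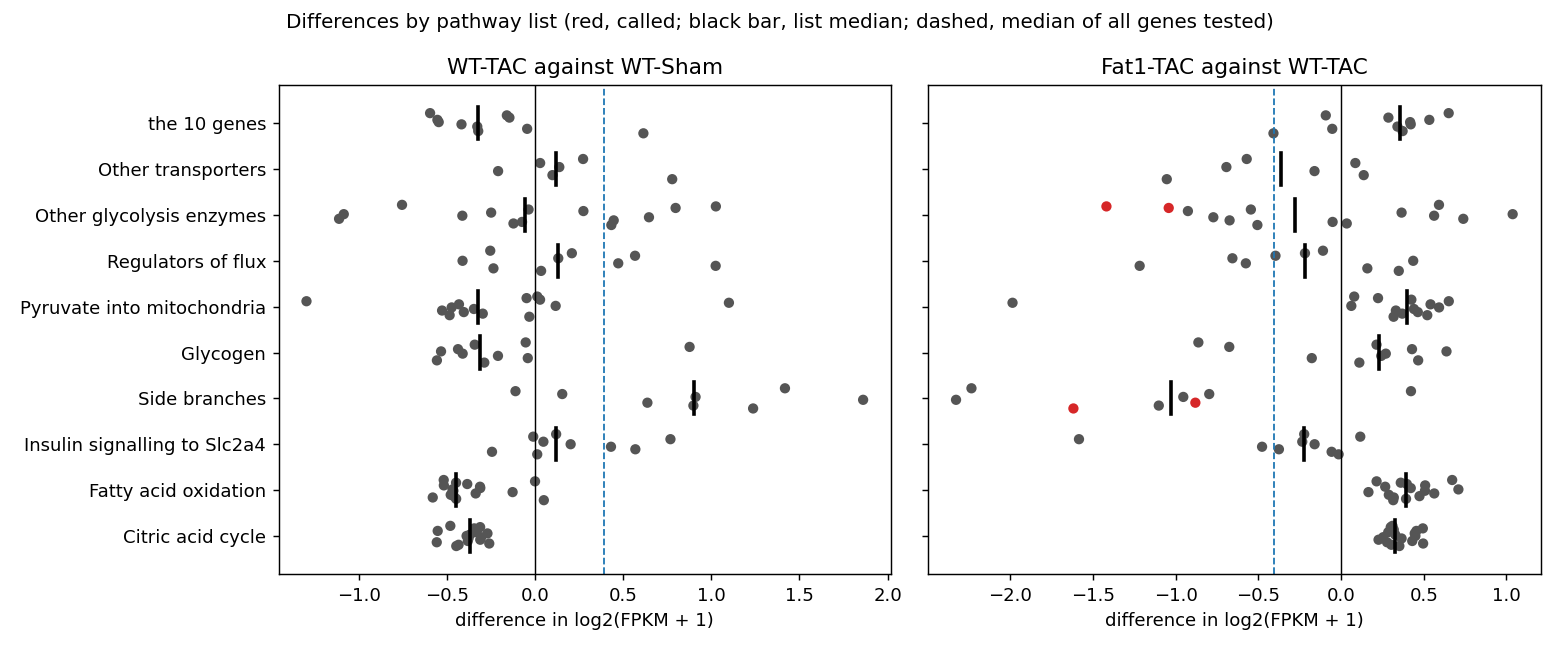
Difference in log2(FPKM + 1) of each tested gene by pathway list for WT-TAC against WT-Sham (left) and Fat1-TAC against WT-TAC (right), with called genes in red, list medians as black bars and the median of all genes tested dashed. The 4 red points are Eno2, Eno1, G6pdx and Taldo1, and the medians of the 10 genes, fatty acid oxidation and the citric acid cycle lie on the same side of 0 in each panel, opposite to the median of all genes.

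Genes with the most similar course were sought among 9458 genes with a mean of 5 FPKM or more, by Pearson's r of log2(FPKM + 1) over the 8 libraries, as a description. They were Mvp (0.977), Naglu (0.968) and Dctn2 (0.963) for Slc2a1, and Rbm20 (0.990), Itga7 (0.986) and St6galnac6 (0.985) for Slc2a4. For Ldha they were Atf6 (0.939), Gnb5 (0.933) and Dnm1l (0.928), and for Pgam2 Tnni3k (0.992), Tecr (0.991) and Mmachc (0.989). The points share libraries, and WT-TAC1 was the lowest library for Slc2a4 and Pgam2.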

How the data were processed

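For each gene and library the authors deposited 1 FPKM value, made from reads that passed quality control and were then mapped to a reference transcriptome. Per the labels, the submitters' processing notes name HISAT2 and mm10 (GRCm38). The counting program, versions and annotation are not given in the sources used here. From the table, 4 blank lines were removed. Positions are those of GENCODE annotation of GRCm38. Whole fragments were recovered for 100.00% of genes (tolerance 0.001) by finding 1 length per gene, and 10711 genes fitted the median length of their annotated transcripts. Recovered fragments give depth and the mitochondrial share only, and they cover counting error only.

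The 14442 genes that reached 1 FPKM in 2 libraries were tested on log2(FPKM + 1), a scale that understates the change of low genes. The test was limma 3.58.1 (R 4.3.3, lmFit and eBayes with trend) with 4 group means over all 8 libraries. A check on simulated data gave all groups the same spread, so it does not cover the larger spread of WT-TAC. SE and 95% intervals are moderated and use a spread pooled over all 4 groups, also where only 2 groups are compared. Ratios were tested by exact two-sided permutation within the other factor. With 2 against 2 libraries alone, an exact permutation test cannot go below 0.33. Alternatives were other scalings, filters, pseudocount, weights, groups in the fit, the replicate block, a per-gene test and leaving out each library.

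The 10 genes, the pathway and marker lists and the tests were chosen with earlier results of these data known. Named genes are the 10, every called gene of the pathway lists, the 3 list genes with the largest difference in each direction in each pairwise comparison, the leading gene and markers at 0 of each marker list, and the 3 genes most alike to Slc2a1, Slc2a4, Ldha and Pgam2. A gene that this rule names is not reported here. Rag1, the 5 overload genes named in the closing section and the isoform partners of the 4 further ratios were chosen after their values were seen.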

Additional observations from a re-analysis of the deposited data

Results flagged for a closer look

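In 3 ratios of isoforms both TAC libraries moved away from both sham libraries in one direction in WT hearts and in the opposite direction in fat-1 hearts. The log2 response of Ldha to Ldhb was 0.44 in WT and -0.22 in fat-1 hearts, a difference of -0.6576. For Pgam1 to Pgam2 the responses were 0.84 and -0.62, a difference of -1.461. For Pfkl to Pfkm they were 0.34 and -0.05, a difference of -0.3984. An exact permutation of surgery within genotype gave each a p of 0.0556, or 0.13 adjusted over 7 ratios, but that p was fixed by the pattern for which the 3 were singled out and supports nothing. Of the 7 ratios, 4 were chosen after their values were seen.

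Levels of 3 of 27 named genes (11.1%) lay in opposite directions in the same way, beside 9.19% of all genes tested. Hif1a, a transcription factor of the hypoxia response, was at 17.9 and 20.8 FPKM in WT-Sham, 38.7 and 21.8 in WT-TAC, 26.5 and 22.7 in Fat1-Sham and 21.8 and 22.03 in Fat1-TAC. Its interaction was -0.727 (SE 0.37). For Pdk3 the interaction was -1.59 (SE 0.70), and for Taldo1 it was -0.919 (SE 0.24). Each of these 3 genes had an interaction adjusted p of 0.494 by limma, so none was called. Without WT-TAC1 the interactions were -0.33 for Hif1a, -0.93 for Pdk3 and -0.96 for Taldo1. The libraries that carry the WT response are those in which markers of other tissues were high, and the part of those tissues was not tested.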

How the results depend on the processing

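Each group had 2 libraries, and 9 of the 10 genes had 1838 fragments or more in each library. Whether spread or depth limited the calls was not tested. The call of the 10 genes was at 0 in 91 of 94 combinations of a comparison with an alternative, and the exceptions are the 3 without WT-TAC2. Of 940 values of single genes, 849 kept their direction and their side of the threshold, 74 changed sign and 17 gained a call, all 17 without WT-TAC2. Eno1, G6pdx and Taldo1 were each called in 3 of 19 alternatives and Eno2 in 4 of 18, with adjusted p up to 0.469 by limma, and all stayed lower in Fat1-TAC. The ratio tests within genotype or surgery could not go below 0.0556, so that their not passing 0.05 says nothing of stability. Without the stratum the exact permutation p was 0.0571 or more. Samples with the same replicate number did not deviate together (r from -0.135 to 0.024). This shows no pairing by number, but with 2 libraries in each group it cannot exclude one. With the replicate block, 0 of the 10 genes were called in any comparison. The cause of the changes below was not tested.

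Counts of all genes called depended strongly on the processing. For WT-TAC against WT-Sham, against 135, there were 23 with median of ratios size factors, 16 with quantile normalization, 69 scaled without mitochondrially encoded genes, 208 scaled to cardiomyocyte markers, 293 with no filter beyond a value above 0, 9 at a mean of 5 FPKM or more, 33 with a pseudocount of 0.1, 5 with sample quality weights, 52 with the replicate block and 30 by the per-gene test. For Fat1-TAC against Fat1-Sham, against 1, there were 0 with no filter beyond a value above 0, 0 at a mean of 5 FPKM or more, 129 with sample quality weights, 0 by the per-gene test and 84 with only the 2 groups compared. For Fat1-TAC against WT-TAC, against 206, there were 20 with median of ratios size factors, 14 with quantile normalization, 95 scaled without mitochondrially encoded genes, 360 scaled to cardiomyocyte markers, 350 with no filter beyond a value above 0, 15 at a mean of 5 FPKM or more, 33 with a pseudocount of 0.1, 9 with sample quality weights, 52 with the replicate block, 30 by the per-gene test and 42 with only the 2 groups compared. For Fat1-Sham against WT-Sham, against 0, there were 1 by the per-gene test. For the interaction, against 10, there were 0 with median of ratios size factors, 0 with quantile normalization, 6 scaled without mitochondrially encoded genes, 34 scaled to cardiomyocyte markers, 70 with no filter beyond a value above 0, 0 at a mean of 5 FPKM or more, 0 with a pseudocount of 0.1 and 0 with the replicate block.

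The median of the 10 genes for WT-TAC against WT-Sham, -0.32 as deposited, was -0.80 with median of ratios size factors and 0.16 scaled to cardiomyocyte markers. The median of the 10 genes for Fat1-TAC against WT-TAC, 0.36 as deposited, was 0.82 with median of ratios size factors and -0.29 scaled to cardiomyocyte markers. The median of the 10 genes for the interaction, 0.18 as deposited, was 0.61 with median of ratios size factors and -0.37 scaled to cardiomyocyte markers.

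Differences of single genes, none of them called, changed sign under 4 scalings. With quantile normalization, the values were 0.0503 for Pkm in WT-TAC against WT-Sham, -0.0099 for Slc2a1 in Fat1-TAC against Fat1-Sham, 0.096 for Slc2a1 and 0.21 for Hk1 in Fat1-TAC against WT-TAC, 0.00139 for Ldha in Fat1-Sham against WT-Sham, and 0.0365 for Hk1, -0.00969 for Aldoa and -0.00816 for Pkm in the interaction. Scaled to cardiomyocyte markers, the values were 0.16 for Slc2a4, 0.44 for Hk1, 0.15 for Hk2, 0.068 for Pfkm, 0.34 for Pkm and 0.33 for Ldha in WT-TAC against WT-Sham, -0.0502 for Slc2a1 and -0.0287 for Pkm in Fat1-TAC against Fat1-Sham, -0.28 for Slc2a4, -0.30 for Hk2, -0.23 for Pfkm, -0.23 for Aldoa, -0.12 for Pgam2 and -0.36 for Pkm in Fat1-TAC against WT-TAC, -0.089 for Pgam2 and -0.0232 for Ldhb in Fat1-Sham against WT-Sham, and -0.37 for Slc2a4, -0.43 for Hk2, -0.34 for Pfkm, -0.25 for Aldoa, -0.0266 for Pgam2 and -0.37 for Pkm in the interaction. With median of ratios size factors, the values were -0.037 for Slc2a1 and -0.0156 for Pkm in Fat1-TAC against Fat1-Sham, 0.0275 for Slc2a1, 0.41 for Hk1 and 0.38 for Ldha in Fat1-TAC against WT-TAC, 0.036 for Ldha in Fat1-Sham against WT-Sham, and 0.16 for Hk1 and 0.34 for Ldha in the interaction. Scaled without mitochondrially encoded genes, the values were 0.00525 for Pgam2 and 0.0148 for Ldhb in Fat1-TAC against Fat1-Sham, 0.13 for Hk1 and 0.095 for Ldha in Fat1-TAC against WT-TAC, -0.012 for Pgam2 in Fat1-Sham against WT-Sham, and 0.13 for Ldha in the interaction.

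With each library left out in turn, each result ranged between a lowest and a highest value. The number of all genes called ranged from 0 to 7065 for WT-TAC against WT-Sham, 0 to 5 for Fat1-TAC against Fat1-Sham, 5 to 7523 for Fat1-TAC against WT-TAC and 0 to 6398 for the interaction. The number of the 10 genes called ranged from 0 to 6 for WT-TAC against WT-Sham, 0 to 6 for Fat1-TAC against WT-TAC and 0 to 5 for the interaction. The median of the 10 genes ranged from -0.26 to -0.054 for Fat1-TAC against Fat1-Sham, 0.078 to 0.18 for Fat1-Sham against WT-Sham, -0.77 to 0.0445 for WT-TAC against WT-Sham, -0.0207 to 0.80 for Fat1-TAC against WT-TAC and -0.20 to 0.59 for the interaction. For WT-TAC against WT-Sham, values ranged from -0.22 to 0.14 for Hk1, -0.74 to 0.097 for Slc2a4, -0.79 to 0.14 for Hk2, -0.83 to 0.000307 for Pfkm and -0.39 to 0.10 for Pkm. For Fat1-TAC against Fat1-Sham, values ranged from -0.19 to 0.20 for Slc2a1, -0.13 to 0.055 for Pgam2, -0.076 to 0.0228 for Ldhb and -0.057 to 0.12 for Pkm. For Fat1-TAC against WT-TAC, values ranged from -0.0463 to 0.79 for Slc2a4, -0.12 to 0.81 for Hk2, -0.19 to 0.0799 for Hk1 and -0.23 to 0.0419 for Ldha. For Fat1-Sham against WT-Sham, values ranged from -0.056 to 0.091 for Pgam2, -0.0267 to 0.0213 for Ldha and -0.0287 to 0.20 for Ldhb. For the interaction, values ranged from -0.24 to 0.60 for Slc2a4, -0.35 to 0.58 for Hk2, -0.22 to 0.62 for Pfkm, -0.0898 to 0.68 for Aldoa, -0.072 to 0.42 for Pkm and -0.22 to 0.0446 for Ldha. The log2 surgery difference of Hk1 to Hk2, 0.096, was -0.071 to 0.26. That of Ldha to Ldhb, 0.11, was 0.0027 to 0.21, and that of Slc2a1 to Slc2a4, 0.57, was 0.38 to 0.76. Log2 genotype differences were -0.38 to -0.041 for Hk1 to Hk2 and -0.52 to -0.31 for Ldha to Ldhb. For Slc2a1 to Slc2a4 the genotype difference was -0.59 to -0.20.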

Other observations

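None of 5 genes by which cardiac overload is usually read, Myh7, Nppa, Nppb, Acta1 and Ankrd1, was called after TAC in either genotype by limma. Their median difference was 0.00065 in WT hearts and 0.41 in fat-1 hearts, with 3 higher and 2 lower in each, and an unadjusted p under 0.05 was found for 1 of them in WT and 2 in fat-1 hearts, beside 27.5% and 2.58% of all genes tested. Myh7, the slow myosin heavy chain that rises in overloaded mouse ventricle, was at 28.9 and 47.3 FPKM in WT-Sham, 50.7 and 89.0 in WT-TAC, 31.1 and 30.5 in Fat1-Sham and 76.0 and 120 in Fat1-TAC. Both TAC libraries lay above both sham libraries in each genotype, with differences of 0.85 (SE 0.35, adjusted p = 0.181 by limma) in WT and 1.60 (SE 0.35, adjusted p = 1 by limma) in fat-1 hearts. Nppa, the atrial natriuretic peptide, was at 106 and 259 FPKM in WT-Sham, 299 and 241 in WT-TAC, 128 and 9.04 in Fat1-Sham and 13.6 and 11.1 in Fat1-TAC. The WT groups overlapped for Nppa, and the Fat1-Sham replicates were far apart. Nppb, the brain natriuretic peptide, was at 248 and 175 FPKM in WT-Sham, 183 and 182 in WT-TAC, 284 and 418 in Fat1-Sham and 264 and 178 in Fat1-TAC. In fat-1 hearts it was thus lower in both TAC libraries, with a difference of -0.67 (SE 0.28, adjusted p = 1 by limma), opposite in sign to Myh7. Acta1, skeletal alpha-actin, differed by -0.61 (SE 0.48) in WT and 0.93 (SE 0.48) in fat-1 hearts, and Ankrd1, a stress-responsive ankyrin repeat protein, by 0.00065 (SE 0.19) and 0.41 (SE 0.19).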
